A study of Mus musculus with 7 samples.

Results

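Occupancy of the glucocorticoid receptor (NR3C1) was described around 6 genes with roles in fat cell formation and fat metabolism, Cebpb, Cebpd, Cebpa, Pparg, Zbtb16 and Angptl4. The members were the receptor summits within 100 kb of 1 fixed mm9 point per gene, an approximate transcription start rounded to 0.01 Mb. Sites were taken by position alone. Summits no more than 200 bp from the next one, in whichever list, were joined into 1 site, and 29 of the 35316 sites of the series fell into the 6 windows. The windows held 9 sites for Cebpb, 5 for Cebpd, 3 for Cebpa and 4 each for Pparg, Zbtb16 and Angptl4.

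The summits came from ChIP-seq with an in-house receptor antibody in mouse embryonic fibroblasts, which the labels describe as made from embryos of dams at 14 to 17 days post coitum and used at passage 4 to 11. The 4 groups were Klf15-/- cells given dexamethasone for 1 h (2 libraries), wild-type cells given dexamethasone for 1 h (2 libraries), Klf15-/- cells given ethanol vehicle for 1 h (2 libraries) and wild-type cells given ethanol vehicle for 1 h (1 library, pooled because little material was at hand). Dexamethasone is a synthetic ligand of the receptor, and KLF15 is a zinc-finger transcription factor whose gene is induced by glucocorticoids. Whether replicate libraries came from separate cultures or embryos is not stated, so their spread may be technical. Neither the fibroblast label nor the loss of Klf15 can be checked from summit lists, and both are taken from the labels.

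Dexamethasone is part of the hormone mixture that turns fibroblast-like precursors into fat cells in culture. In that programme the early factors C/EBPβ and C/EBPδ (encoded by Cebpb and Cebpd) precede C/EBPα and PPARγ (Cebpa and Pparg), which drive and maintain the fat cell state. Zbtb16 encodes PLZF, a BTB zinc-finger transcription factor strongly induced by glucocorticoids in many cells. Angptl4 encodes a secreted inhibitor of lipoprotein lipase that responds to fasting, fatty acids and glucocorticoids.

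Each library has its own list of summits, each with the authors' own score, whose scale is not named. The lists held 19999 and 20169 summits after dexamethasone in Klf15-/- cells, 15628 and 16927 after dexamethasone in wild-type cells, 7325 and 8088 in Klf15-/- vehicle cells and 10034 in wild-type vehicle cells. The read depth is unknown. A score is therefore given only as the percentile within its own list, from 0 for the lowest to 100 for the highest, and no change is read from percentiles of lists of different lengths. A missing summit does not show missing occupancy. The first Klf15-/- vehicle library stood apart, since 414 of its neighbouring summit pairs were closer than 200 bp, and no other list had more than 4 such pairs. Its sites were in no other list in 29.4% of cases, against 9.44% to 15.3% for the other libraries. Chromosome Y held 75 to 197 summits in each Klf15-/- list, against 1 or 2 in each wild-type list. No mm9 gene annotation was used, so no site is placed in an exon, an intron or a UTR, and a window may also reach neighbouring genes. By their order in RefSeq (GRCm38.p6), the genes on either side are Tmem189 and Ptpn1 for Cebpb, Mzt2 and Spidr for Cebpd, Gm45095 and Slc7a10 for Cebpa, Nnmt and Gm32280 for Zbtb16, and Rab11b and Kank3 for Angptl4. The order gives no distances, so whether a window reaches any of these genes was not checked.

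Summed over the 6 windows, the lists held more receptor summits after dexamethasone in both genotypes. Klf15-/- dexamethasone lists had 24 and 23 summits there and wild-type ones 17 and 18, against 5 and 7 in the Klf15-/- vehicle lists and 9 in the wild-type vehicle list. Scaled to list length, the dexamethasone lists held 11.2 ± 0.606 summits in the windows per 10000 summits of the list (SD, n = 4), against 8.15 ± 1.16 for the vehicle lists (n = 3). The difference of 3.08 per 10000 had p = 0.0571 in an exact two-sided permutation test over lists, the smallest p that 4 lists against 3 allow, and every dexamethasone list lay above every vehicle list. The exact 95% intervals of single lists, which cover counting error only, were wide and overlapped, at 7.69 to 17.9 per 10000 for the first Klf15-/- dexamethasone list against 4.10 to 17.0 for the wild-type vehicle list. Without the first Klf15-/- vehicle library the difference of the means was 2.42 per 10000 (exact permutation test, p = 0.133, the smallest that 4 lists against 2 allow). It was 3.96 per 10000 within Klf15-/- cells and 1.79 within wild-type cells. It turned to -1.81 per 10000 when the windows were narrowed to 50 kb on either side (exact permutation test, p = 0.114). Among summits above the median score of their list it was 8.62 per 10000, and in lists cut to an equal length of 7325 summits 7.62 (exact permutation test, p = 0.0571 for both).

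**Figure D1:**
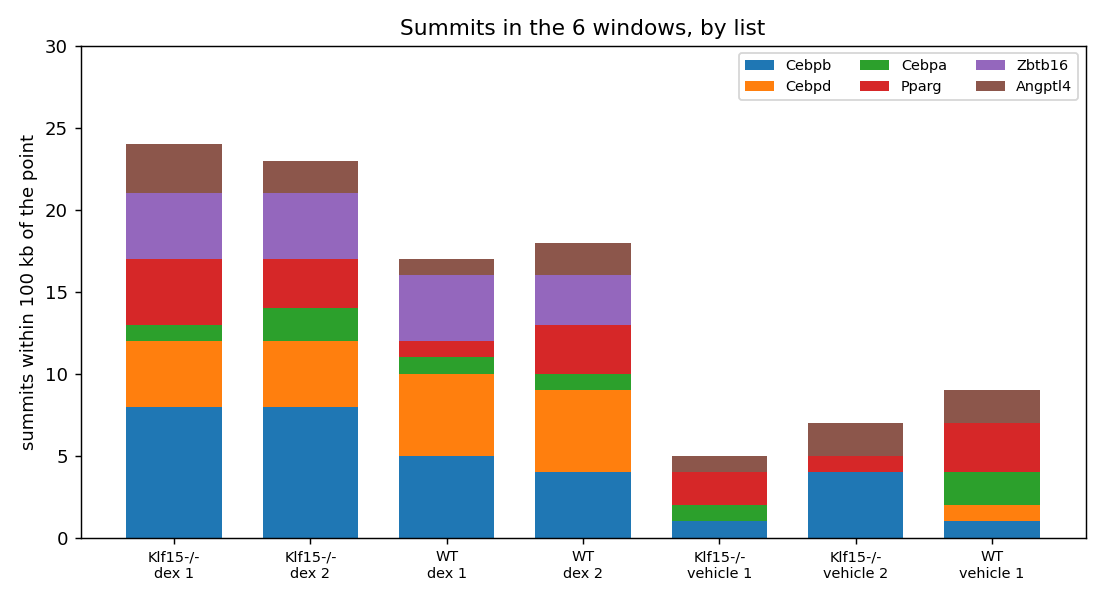
Summits within 100 kb of the 6 points (y axis, count) in each of the 7 lists (x axis), stacked by gene. The 4 dexamethasone lists held 17 to 24 summits and the 3 vehicle lists 5 to 9, and no vehicle list had a summit in the Zbtb16 window.

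Per gene, the windows differed in how many of their sites were found with and without ligand. Of the 29 sites, 14 were held by all 4 dexamethasone lists (48.3%, against 25.4% of all sites of the series), and 7 of these had no summit in any vehicle list (24.1%, against 7.85% of all sites). These 7 lay in the windows of Cebpd (3), Zbtb16 (3) and Cebpb (1). A vehicle summit was present in 14 sites (48.3%, against 45.8% of all sites). The 2 sites held by all 7 lists lay near Angptl4 and Pparg (6.90% of the members, against 6.22% of all sites). A single list held 5 sites (17.2%, against 38.7% of all sites). For scale, 12051 tiles of 200 kb over the autosomes held a median of 2 sites each. The tiles were laid without regard to genes, unlike the windows, and 33.6% of them held no site. As many sites as the 9 of the Cebpb window, or more, were found in 7.83% of tiles, as many as the 5 of Cebpd in 23.4%, as many as the 4 of Pparg, Zbtb16 and Angptl4 in 30.6%, and as many as the 3 of Cebpa in 39.7%.

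**Figure D2:**
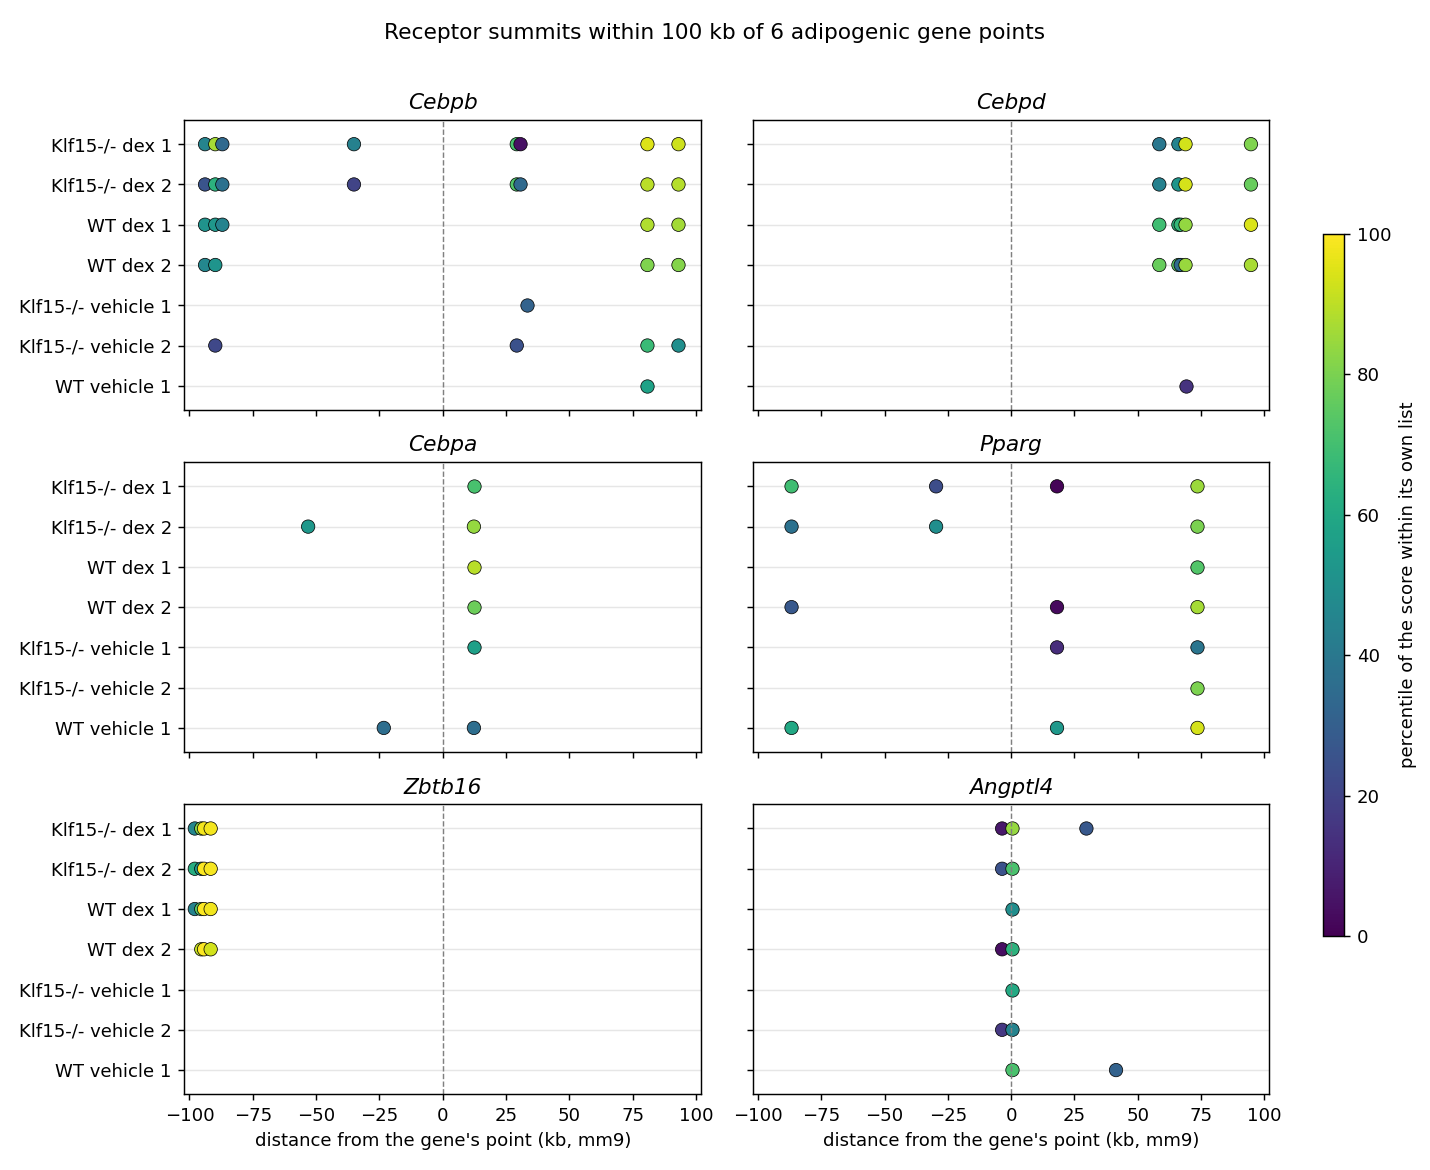
Summits in the 6 windows by list, with the distance from the gene's point on the x axis (kb, mm9, negative toward lower coordinates) and 1 row per list. Colour gives the percentile of the score within its own list. The 4 Zbtb16 sites lie between 91.6 and 97.9 kb from the point in dexamethasone rows only, and the Angptl4 site at 0.536 kb is in all 7 rows.

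In Klf15-/- cells, 14 of the 29 sites were held by both dexamethasone lists and by neither vehicle list (48.3%, against 23.7% of all sites). The corresponding count in wild-type cells was 10 sites held by both dexamethasone lists and not by the vehicle list (34.5%, against 15.9% of all sites). The order of the genotypes depended on list length. In lists of equal length the counts were 4 in Klf15-/- and 8 in wild-type cells. Among summits above the median score of their list they were 8 in Klf15-/- and 10 in wild-type cells. Without the first Klf15-/- vehicle library, the Klf15-/- count was 15, and 13 sites had a vehicle summit. Narrowing the windows to 50 kb left 3 such sites in Klf15-/- cells and 0 in wild type. Distance from the point went along with this. Within 50 kb of a point there were 12 sites. All 4 dexamethasone lists held 2 of these (16.7%, against 25.4% of all sites) and some vehicle list held 8 (66.7%, against 45.8%). From 50 to 100 kb there were 17 sites, of which 12 were held by all 4 dexamethasone lists (70.6%) and 6 by some vehicle list (35.3%). All 7 sites with 4 dexamethasone summits and no vehicle summit lay in the outer range. At Cebpd, Zbtb16 and Angptl4 distance cannot be told apart from gene. Every Cebpd and Zbtb16 site lay beyond 50 kb and every Angptl4 site within it. Cebpb, Cebpa and Pparg had sites in both ranges. All 4 dexamethasone lists held 4 of the 9 Cebpb sites and 1 of the 4 Pparg sites, all beyond 50 kb. Of the 3 Cebpa sites they held 1, which lay within 50 kb. In each dexamethasone list the 14 sites with 4 dexamethasone summits had a higher median percentile than all 8977 such sites, at 84.7 and 78.3 against 73.7 and 74.2 in Klf15-/- cells, and 78.6 and 81.1 against 68.1 and 70.5 in wild-type cells. The comparison of the distance ranges was chosen after the values were seen and was not tested.

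Near Cebpb, the gene of the early factor C/EBPβ, the window held the most sites of the 6, and the nearest of them was 29.2 kb from the point. Its highest-ranked sites were on the side of higher coordinates of chromosome 2. At 167602936 to 167603271, 93.1 kb from the point, the percentiles were 92.2 and 88.7 in Klf15-/- dexamethasone cells and 85.9 and 81.3 in wild-type dexamethasone cells. This site had a vehicle summit only in the second Klf15-/- vehicle list, at percentile 49.5. Its neighbour at 167590748 to 167590927 (80.8 kb) stood at 94.7 and 89.7 in Klf15-/- and 88.2 and 80.8 in wild-type dexamethasone cells. Without ligand it was found at percentile 67.8 in the second Klf15-/- vehicle list and 57.7 in the wild-type vehicle list. Both sites were thus held by every dexamethasone list and by 1 or 2 of the 3 vehicle lists.

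Toward lower coordinates, 3 Cebpb sites lay 87.0 to 93.8 kb from the point. The site at 167420117 to 167420282 (89.8 kb) stood at percentiles 86.5 and 64.0 in Klf15-/- dexamethasone cells and 53.2 and 51.9 in wild-type dexamethasone cells, and at 21.7 in the second Klf15-/- vehicle list. At 167416112 to 167416200 (93.8 kb) the percentiles were 45.0 and 25.9 in Klf15-/- and 51.3 and 46.3 in wild-type dexamethasone cells, with no vehicle summit. The site at 167422950 to 167423018 (87.0 kb) was held at 33.6 and 37.2 in Klf15-/- cells and at 44.9 in the first wild-type list alone. These sites ranked low to middling in most lists, apart from the percentile of 86.5 in 1 Klf15-/- list.

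The 4 Cebpb sites within 50 kb of the point were all missing from wild-type lists. At 167539238 to 167539248, 29.2 kb toward higher coordinates, the Klf15-/- dexamethasone lists had percentiles 71.0 and 73.0 and the second Klf15-/- vehicle list 25. The sites at 167540681 to 167540774 (30.7 kb; percentiles 4.25 and 34.3) and at 167474920 to 167474976 (35.1 kb toward lower coordinates; 43.6 and 19.9) were held by both Klf15-/- dexamethasone lists alone. The first Klf15-/- vehicle library, the one that stood apart, gave the fourth, a summit at 167543401 (33.4 kb) at percentile 31.3 that no other list held. For the 3 with dexamethasone summits, the nearest wild-type dexamethasone summit was at least 50 kb away.

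Near Cebpd, the gene of the other early factor, C/EBPδ, receptor sites appeared almost only after dexamethasone, and none lay within 50 kb of the point. All 5 were toward higher coordinates on chromosome 16, and 4 were held by every dexamethasone list. In lists of equal length, and among summits above the median score, 2 were. The site at 15958792 to 15958944, 68.9 kb from the point, stood at percentiles 93.3 and 93.7 in Klf15-/- dexamethasone cells and 83.7 and 84.6 in wild-type dexamethasone cells. It also had a low vehicle summit in wild type, at percentile 14.7, and none in Klf15-/- vehicle cells. It was the only Cebpd site with a vehicle summit.

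The farthest Cebpd site, at 15984641 to 15984745 and 94.7 kb from the point, stood at percentiles 80.6 and 76.8 in Klf15-/- and 94.2 and 86.8 in wild-type dexamethasone cells. Closer in, the site at 15948499 to 15948532 (58.5 kb) stood at 39.5 and 43.7 in Klf15-/- and 69.4 and 76.8 in wild-type cells. The site at 15956035 to 15956088 (66.1 kb) had percentiles of 44.9 and 52.1 in Klf15-/- and 64.5 and 73.8 in wild-type cells. The remaining site, at 15956872 to 15957043 (67.0 kb), was held by both wild-type dexamethasone lists, at percentiles 66.6 and 35.1, and by neither Klf15-/- list. The nearest Klf15-/- dexamethasone summit was 0.914 kb away, and the 2 wild-type summits of this site lay 171 bp apart.

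Around Cebpa, the gene of C/EBPα, 1 site was found in all 4 dexamethasone lists, and it was also found without ligand. It lay on chromosome 7 at 35912256 to 35912374, 12.3 kb from the point, the nearest to its point of such sites after that of Angptl4. Its percentiles were 71.1 and 84.3 in Klf15-/- dexamethasone cells and 89.1 and 77.7 in wild-type dexamethasone cells, against 56.4 in the first Klf15-/- vehicle list and 35.6 in the wild-type vehicle list. The genotypes overlapped after dexamethasone. The other two sites were in 1 list each, at 35846864 in the second Klf15-/- dexamethasone list (percentile 53.3) and at 35876728 in the wild-type vehicle list (35.6).

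The Pparg window, around the gene of the nuclear receptor PPARγ, had 4 sites on chromosome 6, of which 3 were also seen without dexamethasone. The site at 115443559 to 115443623, 73.6 kb toward higher coordinates, was held by all 7 lists. Its percentiles were 85.1 and 79.8 in Klf15-/- and 72.9 and 86.6 in wild-type dexamethasone cells, against 39.0 and 80.2 in Klf15-/- vehicle cells and 93.7 in wild-type vehicle cells. In wild-type vehicle cells it was the highest-ranked of the 9 member sites of that list, and all groups with more than 1 list overlapped. The 7 summits lay within 64 bp of each other.

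The other Pparg sites were held by fewer lists. At 115283259 to 115283327, 86.7 kb toward lower coordinates, there were summits in both Klf15-/- dexamethasone lists (69.5 and 37.5), in the second wild-type dexamethasone list (27.2) and in the wild-type vehicle list (60.1). At 115387984 to 115388255 (18.1 kb) the percentiles were 0.813 in the first Klf15-/- and 2.61 in the second wild-type dexamethasone list, against 12.8 in the first Klf15-/- vehicle list and 53.3 in the wild-type vehicle list. In the 2 dexamethasone lists that held it this site stood near the bottom of the list, and in the wild-type vehicle list near the middle. These lists differ in length, and no change is read from the percentiles. Both Klf15-/- dexamethasone lists alone held the last site, at 115340350 to 115340397 (29.6 kb), at percentiles 23.1 and 49.0.

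Around Zbtb16, all 4 sites were found only after dexamethasone, and they included the highest-ranked sites of the 6 windows. They lay in a row on chromosome 9, toward lower coordinates from the point, with 2.54, 1.09 and 2.63 kb between neighbours. The top site, at 48545723 to 48545762 and 94.3 kb from the point, stood at percentiles 98.4 and 99.4 in Klf15-/- dexamethasone cells and at 99.4 and 99.5 in wild-type dexamethasone cells. It ranked 316th and 124th of the Klf15-/- lists and 96th and 79th of the wild-type lists. No vehicle list held it. The neighbouring site at 48548362 to 48548382, 91.6 kb from the point, stood at percentiles 98.2 and 98.6 in Klf15-/- cells and 97.8 and 93.1 in wild-type cells. At both sites the 4 dexamethasone lists were high, above percentile 93 in every one.

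The remaining Zbtb16 sites ranked lower. At 48544623 to 48544688, 95.3 kb from the point, the percentiles were 81.8 and 53.4 in Klf15-/- dexamethasone cells and 73.5 and 90.9 in wild-type dexamethasone cells, with overlap between the genotypes. The outermost site, at 48542109 to 48542122 and 97.9 kb from the point, was held by both Klf15-/- dexamethasone lists (percentiles 46.4 and 62.4) and by the first wild-type list (44.6), but not by the second. The nearest vehicle summit lay 248 to 254 kb away from these sites. Among the 2774 sites of the series held by all 4 dexamethasone and no vehicle list, the median distance to a vehicle summit was 22.5 kb, and 3.35% lay as far from one as the top Zbtb16 site did. Each of the 4 sites had 3 other sites within 10 kb, as did the Cebpd sites at 66.1 and 67.0 kb. The share with 3 or more was 20.7% of the members and 11.4% of all sites of the series. Windows of 95 kb would hold only 2 of the 4 Zbtb16 sites.

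**Figure D3:**
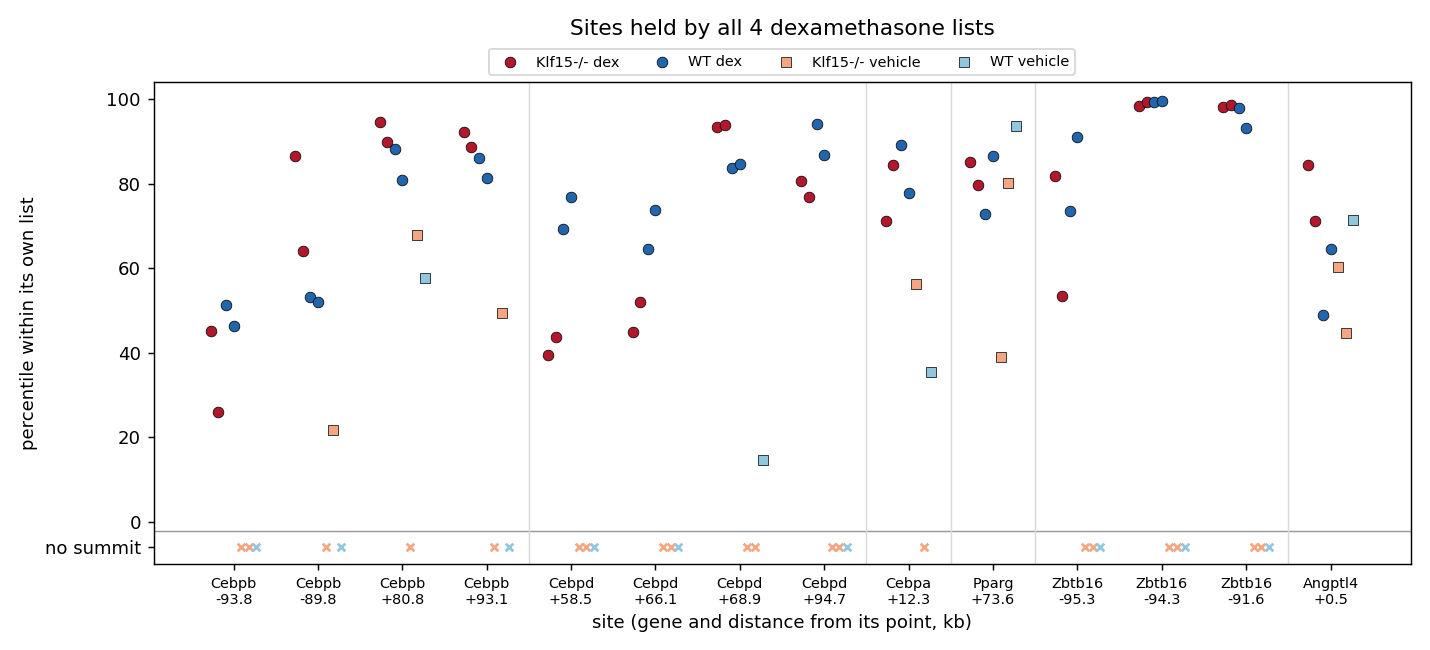
Percentile of the score within its own list (y axis) for the 14 sites held by all 4 dexamethasone lists (x axis, gene and distance from its point in kb). Circles are dexamethasone lists, squares vehicle lists and crosses lists with no summit. The Zbtb16 sites at 94.3 and 91.6 kb stood above percentile 93 in every dexamethasone list, and the 3 Zbtb16 sites have no vehicle summit.

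Angptl4 was the one gene of the 6 with receptor sites within 5 kb of its point. The site at 33920492 to 33920580 on chromosome 17, 0.536 kb from the point, was held by all 7 lists. It stood at percentiles 84.3 and 71.1 in Klf15-/- and 48.8 and 64.4 in wild-type dexamethasone cells, against 60.4 and 44.8 in Klf15-/- vehicle cells and 71.4 in wild-type vehicle cells. The site was thus present with and without ligand, at percentiles from 44.8 to 84.3. It was no longer in all 4 dexamethasone lists when these were cut to equal length or to summits above the median score. At 33916372 to 33916508, 3.56 kb toward lower coordinates, there were low summits in both Klf15-/- dexamethasone lists (6.63 and 25.3), the second wild-type dexamethasone list (3.76) and the second Klf15-/- vehicle list (16.1). Single lists held the other two sites, at 33949732 in the first Klf15-/- dexamethasone list (27.1) and at 33961426 in the wild-type vehicle list (31.2). Since the point is rounded to 0.01 Mb, the distance of the first site from the true start of the gene is known only roughly.

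Genotypes were then compared after dexamethasone, to see whether loss of Klf15 went with other receptor sites at these genes. Both Klf15-/- lists and neither wild-type list held 4 of the 29 sites (13.8%, against 9.78% of all sites). These were the 3 Cebpb sites and the Pparg site within 50 kb of the points that are described above. Both wild-type lists and neither Klf15-/- list held 1 site, that of Cebpd at 67.0 kb (3.45%, against 4.39% of all sites). Per 10000 summits of the list, the windows held 11.7 ± 0.422 summits in Klf15-/- and 10.8 ± 0.173 in wild-type dexamethasone cells (SD, n = 2 each). The difference of 0.946 had p = 0.333 in an exact two-sided permutation test, the smallest that 2 lists against 2 allow. The difference depended on the settings in both directions. It was 2.16 in windows of 50 kb and 1.53 in windows 5 kb wider on either side, but -2.46 among summits above the median score of their list. In lists of equal length it was -0.683, with 1 site held by Klf15-/- alone and 2 by wild type alone.

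The 14 sites held by all 4 dexamethasone lists were also ranked among the 8977 such sites of the series, so that each list ranked the same number of sites. Both Klf15-/- ranks lay above both wild-type ranks at 3 of the 14 (21.4%, against 25.9% of the 8977), and the reverse held at 5 (35.7%, against 27.3%). Both shares were within 10 percentage points of those over all sites. By percentiles of whole lists, which differ in length, the counts were 6 with Klf15-/- higher (42.9%, against 33.8% of the 8977) and 5 with wild type higher (35.7%, against 20.2%). At Cebpd, the sites at 58.5, 66.1 and 94.7 kb ranked lower in Klf15-/- cells. The first had mean rank percentiles of 16.1 in Klf15-/- and 55.7 in wild-type cells, a difference of -39.6, and 3.74% of the 8977 sites had a difference as low or lower. The second had 20.9 in Klf15-/- and 50.2 in wild-type cells, and the third 57.7 in Klf15-/- and 83.1 in wild-type cells. For these, 8.14% and 10.9% of the 8977 sites had a difference as low or lower. The Cebpd site at 68.9 kb went the other way, with 85.9 in Klf15-/- and 72.6 in wild-type cells. Its difference was thus opposite in sign to that of the site at 66.1 kb. A low difference was not confined to Cebpd. The Zbtb16 site at 95.3 kb, where the genotypes overlapped, had -26.5, and 10.2% of the 8977 sites had a difference as low or lower.

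Angptl4 and Cebpb supplied the other sites with higher ranks in Klf15-/- cells. The Angptl4 site at 0.536 kb had rank percentiles of 67.9 and 45.7 in Klf15-/- and 28.3 and 42.0 in wild-type cells. On its chromosome 17 the Klf15-/- dexamethasone lists had 0.864 times the share of summits of the wild-type lists. The Cebpb site at 89.8 kb had 71.9 and 36 in Klf15-/- and 32.5 and 28.2 in wild-type cells, where the first Klf15-/- list sets most of the difference. Among the sites higher in wild type were also the Cebpb site at 93.8 kb (18.5 and 7.71 in Klf15-/-, 30.5 and 22.9 in wild type) and the top Zbtb16 site (96.5 and 98.6 in Klf15-/-, 98.9 and 99.1 in wild type). At 6 sites, among them those of Cebpa and Pparg, the genotypes overlapped. Replicates of a genotype differed by a median of 9.59 percentile points over the 8977 sites in Klf15-/- and 10.1 in wild type, and the genotype means by a median of 12.5. On the chromosomes of Cebpa and Zbtb16 the Klf15-/- dexamethasone lists had a larger share of their summits than the wild-type lists, by factors of 1.15 and 1.13. On those of Cebpb, Cebpd and Pparg the factors were 0.990 to 1.02. The part of these shares, and of the chromosome Y difference, in the genotype results was not tested.

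**Figure D4:**
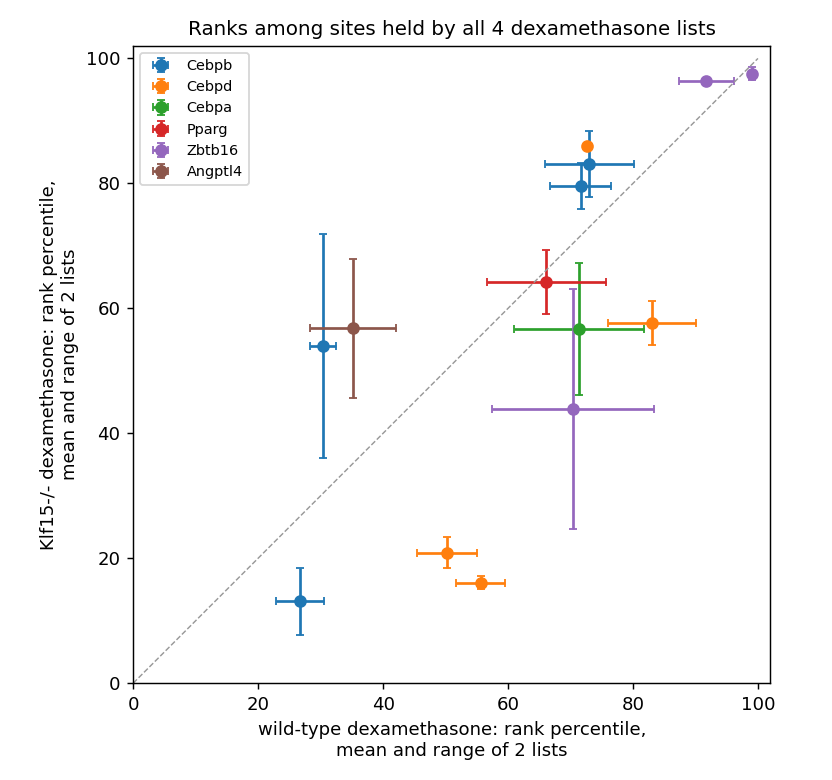
Rank percentile among the 8977 sites held by all 4 dexamethasone lists, in Klf15-/- cells (y axis) and wild-type cells (x axis), for the 14 member sites. Points are means of 2 lists, bars run from the lower to the higher list, and the dashed line marks equal ranks. The Cebpd sites at 58.5 and 66.1 kb lie farthest below the line, with Klf15-/- means of 16.1 and 20.9 against wild-type means of 55.7 and 50.2.

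Without dexamethasone, the genotypes could be set side by side only as 2 lists against 1. Both Klf15-/- vehicle lists but not the wild-type list held 0 of the 29 sites (2.46% of all sites). The wild-type vehicle list but neither Klf15-/- vehicle list held 4, the Cebpd site at 68.9 kb, the Pparg site at 86.7 kb and the single-list sites of Cebpa and Angptl4 (13.8%, against 14.1% of all sites). Sites with a vehicle summit and no dexamethasone summit numbered 3, each in 1 list, for Cebpa, Cebpb and Angptl4 (10.3%, against 12.7% of all sites).

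The window edge cut through runs of sites at some genes. The farthest member and the nearest site beyond 100 kb lay 93.8 and 105.02 kb from the Cebpb point, 94.7 and 101 kb from that of Cebpd, 86.7 and 101 kb from that of Pparg and 97.9 and 108 kb from that of Zbtb16. At Cebpa they lay 53.1 and 120 kb away and at Angptl4 41.4 and 133 kb. The Cebpb site at 105.02 kb was held by all 4 dexamethasone lists, at percentiles 42.7 and 15.1 in Klf15-/- and 24.5 and 30.4 in wild-type cells. The next Cebpd site was held at 32.0 and 70.1 in Klf15-/- cells and at 9.34 in the first wild-type list.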

How the data were processed

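The members and lists were chosen with earlier results of these data known. CASAVA, Bowtie2 and SAMtools and the build mm9 are named per the submitters' processing notes; how peaks were called, and against which control, is not given in the sources used here. The authors deposited 1 list of 1 bp summits per library with a score, and no read counts. Summits of the 7 lists were linked at a gap of 200 bp, and a site belonged to a gene when its middle lay within 100 kb of the point; all its summits then did too. The highest summit of a site gave its percentile. Distances run from the middle of a site. Coordinates are mm9, counted from 1. All sites of the 6 genes are named. Means of 10000-scaled counts were compared by exact permutation over lists. Of the 6 genes, 3 have a promoter in the RefSeq table; Angptl4, the one with a site within 5 kb, is not among them, and no sequence is printed. Linkage was tested on simulated lists. Scripts ran in Python 3.11.15 with scipy 1.17.1, pandas 2.3.3, numpy 2.4.6 and, for figures, matplotlib 3.10.9. Alternatives were other gaps and window widths, score and length cuts, other vehicle rules, replicate pairs and each library left out. A ranking among common sites and the split by distance were added after the data were seen.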

Additional observations from a re-analysis of the deposited data

How the results depend on the processing

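Windows of 50 kb on either side gave 12 sites, 2 in all 4 dexamethasone lists, 8 with a vehicle summit, 3 dexamethasone-only sites in Klf15-/-, 0 in wild type, 0 of wild type alone and the reversed difference between dexamethasone and vehicle of -1.81 per 10000, by leaving out the outer sites. Keeping the upper-scoring summits (those above a list's median), 8 Klf15-/- dexamethasone-only sites, 6 with a vehicle summit and 1 of Klf15-/- alone were left, and the difference between Klf15-/- and wild type was -2.46 per 10000. Lists of equal length gave 8 sites in all 4 dexamethasone lists, 4 Klf15-/- dexamethasone-only sites, 1 of Klf15-/- alone, 2 of wild type alone and a difference of -0.683; the cause of both reversals was not tested. A gap of 100 bp left 0 sites of wild type alone, since the Cebpd site with summits 171 bp apart then splits. With each library left out in turn, the sites numbered 28 to 29, those in all remaining dexamethasone lists 14 to 16, Klf15-/- dexamethasone-only sites 14 to 19, wild-type ones 10 to 12, those with a vehicle summit 10 to 14, those of Klf15-/- alone 4 to 6, those of wild type alone 1, and the differences 2.42 to 3.49 (dexamethasone minus vehicle) and 0.648 to 1.24 (Klf15-/- minus wild type) per 10000. Same-numbered pairs (replicate block) left the difference between genotypes at 0.946, with p = 0.5 in an exact sign-flip test; the labels do not say that numbers mark a shared batch. With percentiles of whole lists, 6 of the 14 sites in all 4 dexamethasone lists ranked higher in Klf15-/- (42.9%, against 33.8% of all 8977 such sites). In wild type 5 ranked higher (35.7%, against 20.2%). Sites in all 4 dexamethasone lists fell to 2 for Cebpd and 0 for Angptl4 under both equal length and the score limit, and to 2 for Cebpb under equal length. Without the first wild-type dexamethasone list, Pparg and Angptl4 had 2 sites each in all remaining dexamethasone lists. The read depth is unknown, and its part in missing summits was not tested.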

Other observations

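Some of the sites between 100 and 150 kb from a point ranked high in their lists. At Zbtb16, a site on chromosome 9 at 48531833 to 48531853, 108 kb from the point, was held by all 4 dexamethasone lists and no vehicle list, at percentiles 90.2 and 92.2 in Klf15-/- and 98.4 and 98.8 in wild-type cells. Another, at 48515559 to 48515753 (124 kb), was held by both wild-type dexamethasone lists alone, at 77.9 and 71.0. At Cebpb, 14 sites lay between 100 and 150 kb from the point, more than the 9 inside the window. The highest-ranked of them, on chromosome 2 at 167642664 to 167642914, was held by all 7 lists, at percentiles 97.1 and 95.5 in Klf15-/- and 92.1 and 93.6 in wild-type dexamethasone cells, against 85.7 and 80.1 in Klf15-/- and 65.5 in wild-type vehicle cells.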
